A study of Mus musculus with 6 samples.

Results

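Bipolar cell genes were examined in retinal RNA of mice that received stem cell factor (SCF) or PBS after an excitotoxic injury. The 9 genes were Prkca, Cabp5, Cabp2, Pcp2, Trpm1, Gng13, Vsx1, Isl1 and Lhx4. They were chosen by name as known bipolar cell genes and not by their values, although earlier results of these data were known. Of the 9 genes, 7 had at least 1 transcript with a value in all 6 libraries, among 25202 genes tested. Gng13 and Isl1 had values in NMDA replicates 2 and 3 only. Wild-type C57BL/6 mice (C57BL/6J in the study's methods), given as postnatal week 5 in the labels and as 4 weeks at the start in the study's methods, all received N-methyl-D-aspartate (NMDA, an agonist of glutamate receptors that kills retinal neurons) in the vitreous, 2 μl at 100 mM per eye. The SCF group (3 libraries) received 2 μl of SCF at 50 ng/μl 2 days later, and the NMDA group (3 libraries) received PBS according to the methods. Retinas were taken 1 week after that injection, so the comparison is of SCF against PBS in injured retinas. The number of mice behind a library is not given, and p-values measure the spread between libraries only.

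Bipolar cells carry the signal of rod and cone photoreceptors to amacrine and ganglion cells. In ON bipolar cells, glutamate from the photoreceptor acts on the receptor mGluR6 and the G protein Go, which closes the cation channel TRPM1, so that light opens the channel. Protein kinase C alpha (the product of Prkca) is the usual marker of rod bipolar cells, and the other members mark rod bipolar cells or kinds of cone bipolar cells. Several of them are also used outside this cell class: Isl1 is made by ganglion cells and cholinergic amacrine cells, and Prkca in many tissues. In whole retina, fewer cells of a type and less RNA per cell cannot be told apart.

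The values were FPKM (fragment counts scaled to transcript length and library size), summed per gene over the transcripts with values in every library. Clean reads ranged from 44925938 to 48783182 per library, and the fragments recovered from the FPKM values of the Ensembl transcripts ranged from 2826684 to 3742787. The files used 2 transcript lists. List A served NMDA replicate 1 and all 3 SCF libraries, and list B served NMDA replicates 2 and 3. The list and the treatment are therefore partly confounded, and what belongs to the list in a difference between NMDA replicates 2 and 3 and the rest cannot be told apart from the treatment. Lens genes also moved with the groups, with a summed level of 23.4 to 295.03 FPKM in NMDA and 443 to 9042 FPKM in SCF and 6 of the 7 lens genes higher in SCF at an unadjusted limma p of at most 0.05. The retinal label was matched by rod genes, whose summed level was 5857 to 8392 FPKM in NMDA and 6974 to 8039 FPKM in SCF.

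The sequences of 2 members are shown first, because which transcript carried the value decides what a level of these genes measures. Cabp5, the gene of a calmodulin-like calcium-binding protein of rod bipolar and some cone bipolar cells, lies on GRCm38 chr7:13398132-13408887 (plus strand). It had values for 2 protein-coding transcripts that share their coding bases up to chr7:13405547 and then part. In the following coding ends, lower case marks the last 30 shared bases (chr7:13405518-13405547) and capitals the bases of that form alone, through its stop codon.
Cabp5 long form, ENSMUST00000005791, own bases chr7:13407783-13407808: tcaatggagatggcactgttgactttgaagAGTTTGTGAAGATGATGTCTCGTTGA
Cabp5 short form, ENSMUST00000117400, own bases chr7:13405548-13405588: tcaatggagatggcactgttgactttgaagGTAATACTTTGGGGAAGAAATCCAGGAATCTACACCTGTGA
The long form joins the next exon and codes for 173 residues. The short form reads on into what is an intron of the long form, has 41 bases of its own to the stop codon, and codes for 178 residues, although its transcript is shorter (1258 against 1777 bases).

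Trpm1, the channel of ON bipolar cells, lies on GRCm38 chr7:64153835-64269775 (plus strand). Of its 23 annotated transcripts, 6 had values in all libraries, and the longest protein-coding transcript (ENSMUST00000085222) was not analysed here. Among the 6, the annotation class "retained intron" (a transcript that keeps intron bases) held 91.7 to 98.8% of the Trpm1 fragments of each library. This is a share among the listed transcripts, and it does not show that most Trpm1 RNA keeps introns. Of 13 annotated protein-coding transcripts, 2 were among the 6, with 653 and 346 bases. The retained-intron transcript ENSMUST00000205960 shares 63.3% of its bases with the longest protein-coding transcript. The boundaries below are where each of the 3 retained-intron transcripts leaves an exon of the coding transcripts, with the last 20 exon bases in lower case and the first 20 intron bases in capitals.
Trpm1 ENSMUST00000205960, chr7:64210919-64210958: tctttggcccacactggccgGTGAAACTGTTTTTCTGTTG
Trpm1 ENSMUST00000206740, chr7:64220273-64220312: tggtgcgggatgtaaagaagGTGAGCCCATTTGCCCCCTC
Trpm1 ENSMUST00000206000, chr7:64240652-64240691: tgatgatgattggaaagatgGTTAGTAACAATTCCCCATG
Each intron part starts with GT, the usual first bases of an intron. ENSMUST00000206740 lies for 98.5% of its 3349 bases in no exon of a coding Trpm1 transcript, ENSMUST00000206000 for 66.6% of its 3068 bases and ENSMUST00000205960 for 28.5% of its 1992 bases.

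None of the 7 members was called in limma, either at a 2-fold change with an adjusted p (Benjamini-Hochberg) of 0.001 or less, or at an adjusted p of 0.05 alone. Among all 25202 genes, 0% passed either threshold. The study reported differentially expressed genes at the stricter of these thresholds, and why the calls differ was not tested. At an unadjusted limma p of at most 0.05, 0 of the 7 members passed, against 9.22% of all genes (2324). A voom fit on the recovered fragments gave 0 members at that p as well, and 2 of 25182 genes at an adjusted p of 0.05. The fitted log2 fold change was above 0 (higher in SCF) for 5 members and below 0 for 2, against 49.1% of all genes above 0. The median over the 7 members was 0.24 on the log2 scale, against -0.0058 over all genes. Among genes with a mean FPKM of at least 1, the medians were 0.194 over 4 members and 0.071 over all genes. Pcp2 was at 0 in all NMDA libraries and entered the fit only through SCF libraries, so its sign was fixed. Without it, 4 of 6 members were above 0 and the median was 0.19. The levels of SCF and NMDA libraries did not overlap for 1 member, Cabp5, against 14.1% of all genes in either direction and 7.63% with SCF higher. Since 1 FPKM was added before the log2, fold changes of genes near 0 FPKM come out smaller than their ratios.

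**Figure D1:**
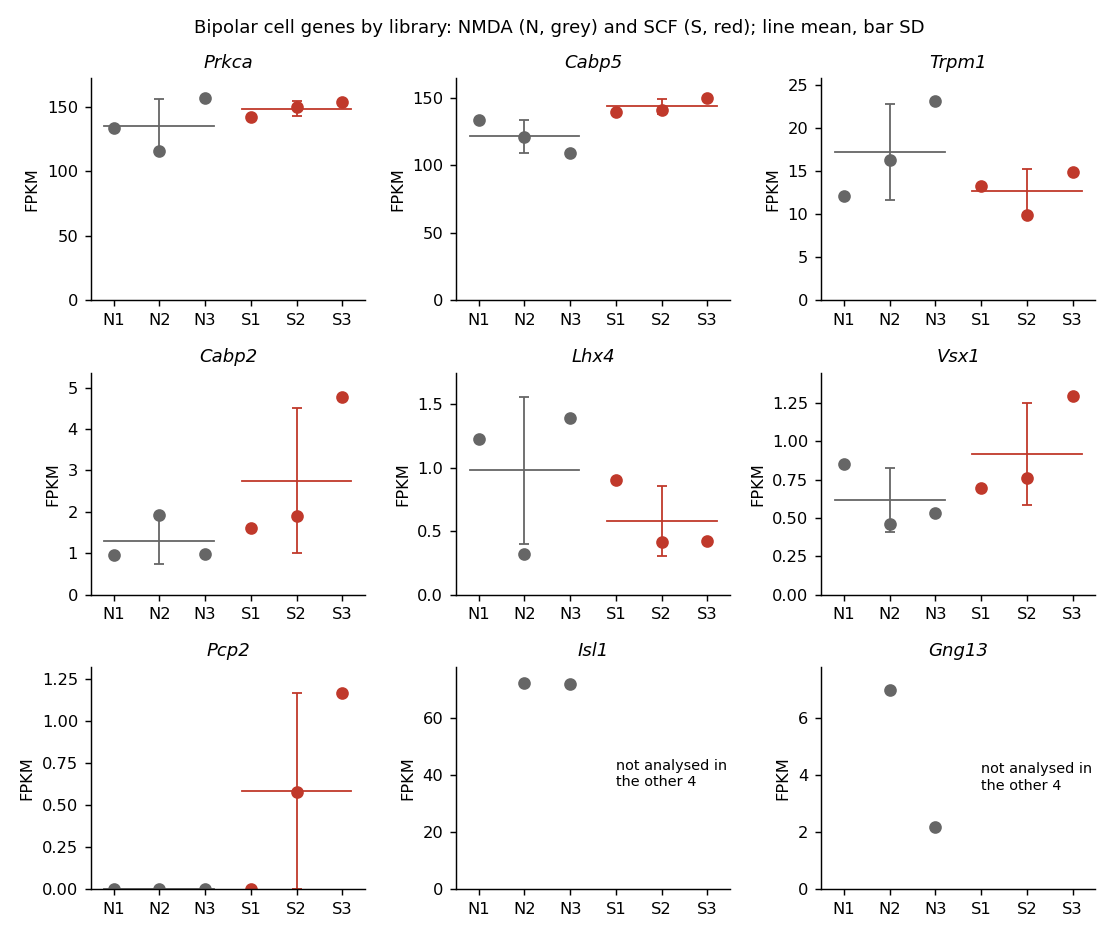
FPKM of each of the 9 genes (vertical axes, from 0) in the 3 NMDA libraries (N1 to N3, grey) and the 3 SCF libraries (S1 to S3, red), with lines at group means and bars of 1 SD. Cabp5 is the member whose 3 SCF values (140 to 150.2) all lie above the NMDA values (109 to 134). Isl1 and Gng13 had values in N2 and N3 only.

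By level, the members fell into 3 tiers. Prkca and Cabp5 were the highest, and their ranges over the 6 libraries overlapped (115.5 to 157 FPKM and 109 to 150.2 FPKM). Together they made up 91.1 to 95.5% of the summed FPKM of the 7 members. Trpm1 stood apart from both neighbours in this order, at 9.95 to 23.2 FPKM. Cabp2 (0.967 to 4.76 FPKM), Lhx4 (0.319 to 1.39 FPKM), Vsx1 (0.464 to 1.30 FPKM) and Pcp2 (0 to 1.17 FPKM) came last, each overlapping its neighbours. The SD between libraries was 15.4% of the mean in NMDA and 4.08% in SCF for Prkca, and 58.9% and 48.0% for Lhx4, which rested on 7 to 34 recovered fragments.

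Prkca encodes a calcium-dependent kinase that acts on signalling in rod bipolar cells. Its level was 133.9, 115.5 and 157 FPKM in NMDA replicates 1, 2 and 3 and 142, 149.8 and 154 FPKM in SCF replicates 1, 2 and 3. The groups overlapped, since NMDA replicate 3 was the highest of all 6. The means were 135.5 ± 20.9 FPKM (SD, n = 3) in NMDA and 148.7 ± 6.07 FPKM (SD, n = 3) in SCF. The fitted log2 fold change was 0.14 (SE 0.18), with a 95% confidence interval of -0.27 to 0.56 and a limma adjusted p of 0.779. It was 0.035 without NMDA replicate 2 and 0.26 without NMDA replicate 3. There were 3824 to 5831 fragments per library. Nearly all of the level came from the protein-coding transcript ENSMUST00000059595 (115 to 156 FPKM), while the other 2 Prkca transcripts analysed had at most 5 fragments in a library. The gene lies on GRCm38 chr11:107933387-108343928 (minus strand).

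Cabp5 was at 134, 121 and 109 FPKM in NMDA replicates 1 to 3 and at 140, 141 and 150.2 FPKM in SCF replicates 1 to 3. The lowest SCF library was above the highest NMDA library. The means were 121.5 ± 12.3 FPKM (SD, n = 3) in NMDA and 143.8 ± 5.61 FPKM (SD, n = 3) in SCF, a ratio of 1.18. The fitted log2 fold change was 0.24 (SE 0.16, 95% confidence interval -0.13 to 0.62), with a limma adjusted p of 0.637. An exact two-sided permutation test gave p = 0.1, the smallest that 3 against 3 libraries allow. The recovered fragments, not scaled for depth, numbered 794, 843 and 847 in NMDA and 827, 857 and 909 in SCF. Scaled to each library's fragments on the shared transcripts they were 289, 287 and 256 CPM in NMDA and 312, 319 and 336 CPM in SCF, without overlap, and with equal FPKM sums the groups were also separate (118.3 to 129 against 138 to 141). They overlapped after upper quartile scaling, where NMDA replicate 1 (146.8) was above the 3 SCF libraries (131.8, 136.9 and 144), and after median-of-ratios scaling, where NMDA replicate 1 was at 141.9 and the SCF libraries at 134.6 to 140.03.

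The long form of Cabp5 had 102 to 125 FPKM in NMDA and 126 to 142 FPKM in SCF, without overlap. The short form, whose own coding end is given above, was at 9.34, 6.60 and 7.16 FPKM in NMDA and at 13.5, 9.59 and 7.81 FPKM in SCF, and its groups overlapped. Its share of the Cabp5 level was 6.32 ± 0.789% (SD, n = 3) in NMDA and 7.21 ± 2.24% (SD, n = 3) in SCF, a difference smaller than the spread in SCF (exact permutation p = 0.7, two-sided). The short form rested on 33 to 58 fragments per library.

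**Figure D2:**
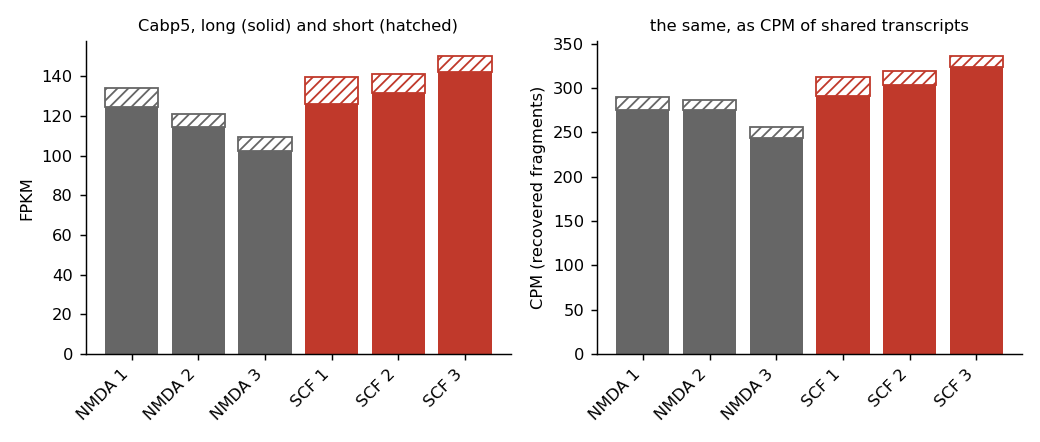
Cabp5 in each library (horizontal axis), as FPKM (left) and as recovered fragments in CPM of the shared transcripts (right), with the long form solid and the short form hatched on top of it, NMDA grey and SCF red. In both panels every SCF bar is above every NMDA bar, with 312 to 336 against 256 to 289 CPM.

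Cabp2, a second calcium-binding protein of the same family, had 0.967, 1.93 and 0.989 FPKM in NMDA and 1.60, 1.89 and 4.76 FPKM in SCF. SCF replicate 3 stood far above the other 5 libraries, which spanned 0.967 to 1.93 FPKM and held both groups. These values rest on 3 to 15 fragments of the transcript ENSMUST00000162908 (GRCm38 chr19:4083519-4087340). The means were 1.30 ± 0.551 FPKM (SD, n = 3) and 2.75 ± 1.75 FPKM (SD, n = 3), and the log2 fold change was 0.64 (SE 0.41, 95% confidence interval -0.33 to 1.61, limma adjusted p = 0.627). Without SCF replicate 3 the log2 fold change was 0.28.

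Pcp2 encodes a modulator of Go-type G proteins found in ON bipolar cells and cerebellar Purkinje cells. It was listed at 0 in all 3 NMDA libraries and SCF replicate 1, at 0.581 FPKM in SCF replicate 2 and at 1.17 FPKM in SCF replicate 3. These are 1 and 2 fragments, below the floor of 3 fragments, so no fold is given and a difference was not detectable at this depth. A further Pcp2 transcript of list A held 1 fragment, in SCF replicate 1. Of the 7 annotated Pcp2 transcripts (GRCm38 chr8:3623371-3625545, minus strand), 1 had values in all libraries.

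Trpm1 was at 12.2, 16.4 and 23.2 FPKM in NMDA and at 13.3, 9.95 and 15.0 FPKM in SCF. The groups overlapped, with NMDA replicate 1 inside the range of the SCF libraries and NMDA replicates 2 and 3 above it. The means were 17.2 ± 5.57 FPKM (SD, n = 3) and 12.7 ± 2.54 FPKM (SD, n = 3), with a log2 fold change of -0.38 (SE 0.28, 95% confidence interval -1.04 to 0.27, limma adjusted p = 0.675). It was -0.60 without NMDA replicate 1, -0.16 without NMDA replicate 3 and -0.23 without SCF replicate 2. Over the 2 protein-coding Trpm1 transcripts alone the sign was the opposite, with a log2 fold change of 0.50, on at most 3 fragments per transcript. The sign was also the opposite, at 0.041, between SCF and NMDA replicate 1, the NMDA library that shares its transcript list. The study's gene ontology table, which the paper describes as a grouping of its differentially expressed genes, lists Trpm1 as up with SCF. The main fitted change here, -0.38, had the opposite sign. At the study's fold change and adjusted p thresholds, neither Trpm1 nor any other gene tested was called here. The transcripts behind the study's entry for Trpm1 are not given.

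The 3 retained-intron transcripts of Trpm1 differed in the sign of their fitted change. ENSMUST00000206000, whose boundary lies at chr7:64240671, had 3.73, 5.08 and 8.73 FPKM in NMDA and 3.14, 3.09 and 3.11 FPKM in SCF. All 3 SCF libraries held 33 fragments of it, below the 39, 62 and 119 of the NMDA libraries, and the log2 fold change was -0.67 (SE 0.31, limma adjusted p = 0.591). ENSMUST00000206740, which is almost wholly intronic, had 3.33, 3.23 and 1.75 FPKM in NMDA and 5.14, 2.40 and 4.75 FPKM in SCF, with overlap and a log2 fold change of 0.42 (SE 0.34, limma adjusted p = 0.710). ENSMUST00000205960 had 2.36, 7.19 and 4.86 FPKM in NMDA and 2.49, 2.60 and 5.37 FPKM in SCF, with overlap and a log2 fold change of -0.34 (SE 0.41, limma adjusted p = 0.791). Over the 15 transcripts of the 7 members, 0 passed an unadjusted limma p of 0.05, against 7.98% of 45261 transcripts. Separate groups were found for 2 of the 15, ENSMUST00000206000 and the long form of Cabp5, against 13.1% of all transcripts.

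**Figure D3:**
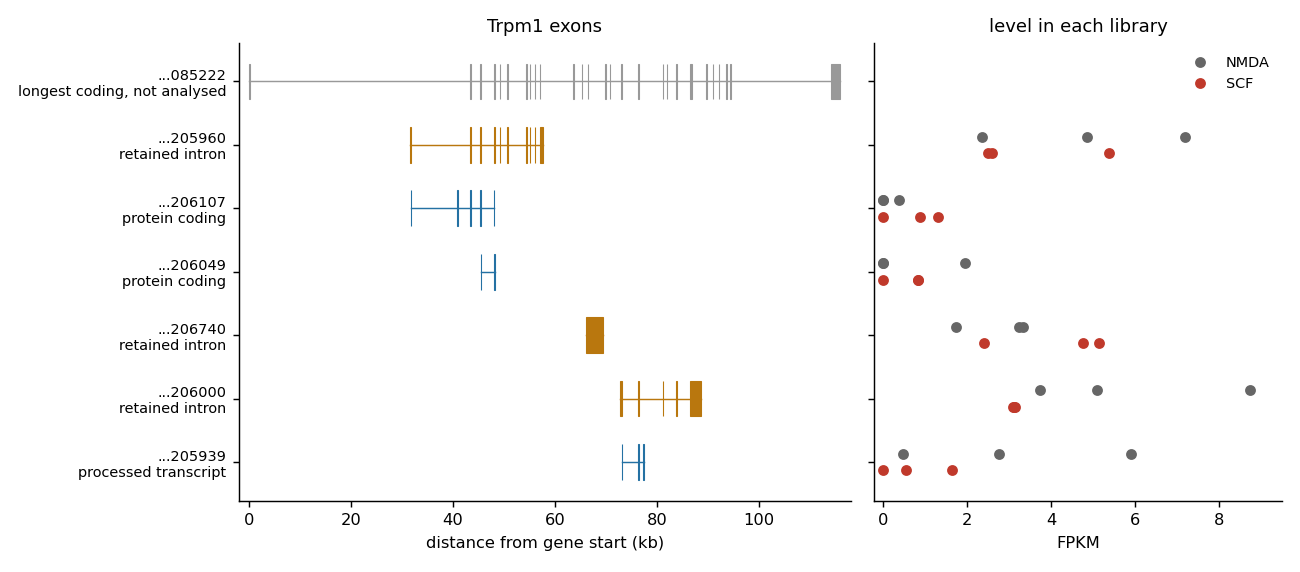
Left, exons of the longest coding Trpm1 transcript (grey) and of the 6 transcripts with values, along the distance from the start of the gene in kb (retained-intron transcripts in ochre, the others in blue, thin exons outlined so that they can be seen). Right, the FPKM of those 6 transcripts in the NMDA (grey) and SCF (red) libraries, where the 3 SCF values of ENSMUST00000206000 lie together at 3.09 to 3.14, below all NMDA values.

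Gng13 encodes the gamma subunit that ON bipolar cells use in their Go protein. It was at 6.99 FPKM (20 fragments) in NMDA replicate 2 and 2.19 FPKM (7 fragments) in NMDA replicate 3, from the transcript ENSMUST00000172002 (GRCm38 chr17:25717171-25719406, plus strand). Isl1 encodes a LIM homeodomain factor needed for ON bipolar cells. Over 3 transcripts it was at 72.1 FPKM in NMDA replicate 2 and 71.8 FPKM in NMDA replicate 3. The protein-coding transcript ENSMUST00000036060 (GRCm38 chr13:116298281-116309689, minus strand) gave 44.4 and 40.2 FPKM of this, and the rest came from a retained-intron transcript (14.4 and 15.9 FPKM) and a processed transcript (13.3 and 15.7 FPKM). Since no SCF library held a value, neither gene was compared.

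Lhx4, a LIM homeodomain factor of cone bipolar cells, was at 1.23, 0.319 and 1.39 FPKM in NMDA and at 0.90, 0.417 and 0.420 FPKM in SCF. NMDA replicate 2 was the lowest of all 6, so the groups overlapped. The log2 fold change was -0.29 (SE 0.32, 95% confidence interval -1.04 to 0.46, limma adjusted p = 0.749). It was -0.18, -0.56 and -0.13 without NMDA replicates 1, 2 and 3. A second Lhx4 transcript with values in list B only, ENSMUST00000195275, had 0.813 and 2.91 FPKM in NMDA replicates 2 and 3. The gene lies on GRCm38 chr1:155698031-155751684 (minus strand).

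Vsx1, a homeodomain factor of some cone bipolar types, was at 0.852, 0.464 and 0.535 FPKM in NMDA and at 0.693, 0.758 and 1.30 FPKM in SCF. NMDA replicate 1 lay among the SCF libraries, and NMDA replicates 2 and 3 lay below them. The values rest on 7 to 17 fragments of its 1 annotated transcript (GRCm38 chr2:150680702-150689360, minus strand). The log2 fold change was 0.24 (SE 0.26, 95% confidence interval -0.38 to 0.85, limma adjusted p = 0.750), and 0.10 without SCF replicate 3.

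The position of NMDA replicate 1, the NMDA library with the list of the SCF libraries, was set beside them. Its level was inside the range of the 3 SCF libraries for 3 members (Vsx1, Trpm1 and Pcp2), below it for 3 (Prkca, Cabp2 and Cabp5) and above it for 1 (Lhx4). With 1 NMDA library on this list no test could be made, and the median log2 difference between SCF and NMDA replicate 1 was 0.10 over the 7 members. SCF replicate 3, the library with the highest lens level (9042 FPKM), also had the highest value of Cabp5, Cabp2, Vsx1 and Pcp2. Between the other SCF libraries the order was the reverse. SCF replicate 1 (lens level 4759 FPKM) was below SCF replicate 2 (443 FPKM) for each of these genes. The part of lens RNA in these values was not tested.

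Other bipolar cell genes were read from 3 lists of 30 genes, of which 21 were tested. The others, among them Grm6, the gene of mGluR6 itself, were not analysed here or had values in only 1 of the transcript lists. Of the 21, 0 passed an adjusted p of 0.05 and 0 passed an unadjusted limma p of 0.05, while the voom fit gave 1 at that p, Bhlhe23, against 9.99% of all genes in that fit. A protein-coding transcript was among those analysed for 17 of the 21, and for Gnb3, Gpr179, Lrit3 and Cacna1s the values come from transcripts of other classes. The fitted log2 fold change was above 0 for 14 and below 0 for 7, with a median of 0.10. The levels of the groups were separate for 2 of the 21, Bhlhe22 and Tpbg, both with SCF higher, against the 14.1% of all genes in either direction and 7.63% with SCF higher. These separations hold for the FPKM as given. Divided by the upper quartile or the median-of-ratios factors of the libraries, the groups overlapped for both genes.

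The list of the ON bipolar cascade, the proteins around mGluR6 and TRPM1, had 7 tested genes, 5 with a log2 fold change above 0 and 2 below. Their summed level was 1097 to 1346 FPKM in NMDA and 1287 to 1371 FPKM in SCF, with overlap. Rgs9bp, which anchors a regulator of G protein signalling, was the highest, at 877, 647.6 and 900.5 FPKM in NMDA and 931, 883 and 739.8 FPKM in SCF. Gnb5, the beta subunit bound to those regulators, was at 272, 252 and 336 FPKM in NMDA and 289, 293 and 371 FPKM in SCF, with a log2 fold change of 0.15 (SE 0.20). The summed level of this list is mainly that of Rgs9bp and Gnb5. Which cells of the retina their RNA came from was not tested, so the sum is no measure of bipolar cells alone. The highest fold change was that of Gnb3, the beta subunit of the Go protein in ON bipolar cells and of transducin in cones, at 34.3, 124.9 and 31.7 FPKM in NMDA and 53.7, 79.5 and 96.9 FPKM in SCF (log2 fold change 0.52, SE 0.52, limma adjusted p = 0.727). The spread within NMDA was wider than the difference between the groups. The lowest was that of Gpr179, an orphan receptor that holds the regulators at the dendrite tip, at -0.11 (SE 0.40).

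Among 6 tested bipolar transcription factors, 4 had a log2 fold change above 0 and 2 below. Bhlhe23, a factor needed for rod bipolar cells, had the highest at 0.60 (SE 0.29, 95% confidence interval -0.08 to 1.28, limma adjusted p = 0.545). It was at 94.3, 45.3 and 47.0 FPKM in NMDA and at 87.2, 90.4 and 90.2 FPKM in SCF. NMDA replicate 1 was above the SCF libraries, and NMDA replicates 2 and 3, with the other transcript list, were below them. Bhlhe22, a factor of OFF cone bipolar and some amacrine cells, was at 32.3, 27.0 and 22.0 FPKM in NMDA and at 33.3, 39.4 and 34.1 FPKM in SCF, without overlap (log2 fold change 0.39, SE 0.20, limma adjusted p = 0.548). Irx5, a factor of some OFF cone bipolar cells, had the lowest value at -0.39 (SE 0.31).

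The remaining list of receptors, channels and subtype markers had 8 tested genes, 5 with a log2 fold change above 0 and 3 below. Scgn, a calcium-binding protein of cone bipolar cells, was the highest, at 278, 173.03 and 171 FPKM in NMDA and 239, 214 and 231 FPKM in SCF. The SCF libraries lay between NMDA replicate 1 and NMDA replicates 2 and 3. Tpbg, a membrane protein of a kind of rod bipolar cell, did not overlap between the groups, at 0.978, 0.349 and 1.0 FPKM in NMDA and 1.05, 1.04 and 1.45 FPKM in SCF (log2 fold change 0.31, SE 0.30). The highest fold change was that of Cacna1s, the gene of a calcium channel subunit, at 0.43 (SE 0.38), with values of 0 to 1.45 FPKM. The lowest was that of Strip2, at 3.87, 5.36 and 7.02 FPKM in NMDA and 4.44, 2.87 and 2.93 FPKM in SCF (log2 fold change -0.53, SE 0.30, limma adjusted p = 0.576).

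**Figure D4:**
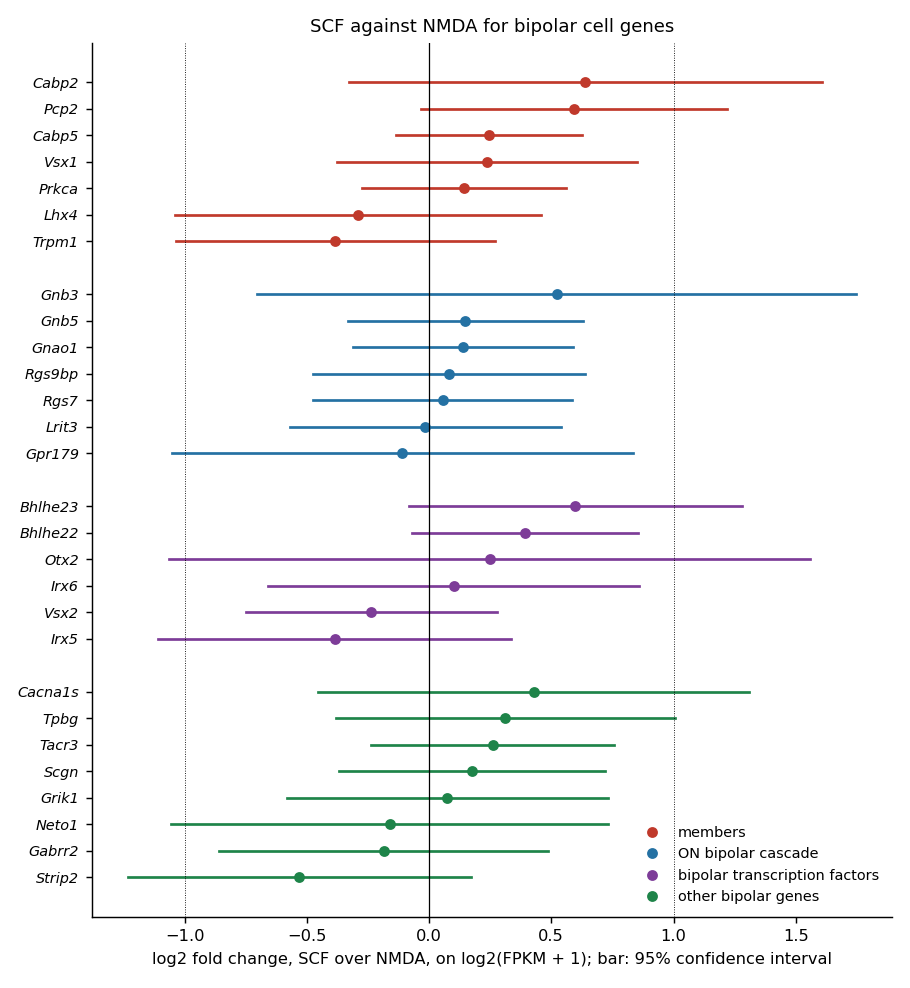
Log2 fold change of SCF over NMDA on log2(FPKM + 1) (horizontal axis) for the 7 tested members and the 21 other bipolar cell genes, with 95% confidence intervals as bars, 0 as a solid line and changes of 2-fold as dotted lines. Every interval includes 0.

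The neighbours of bipolar cells in the retina gave a frame for these levels. The summed amacrine level was 136 to 167.5 FPKM in NMDA and 176 to 191.7 FPKM in SCF, without overlap, but the fitted change was above 0 for 3 of its 7 genes and below 0 for 4, with a median of -0.09. At an unadjusted limma p of 0.05, which 9.22% of all genes passed, 1 amacrine gene was higher and 0 lower. Of 8 rod genes, 2 were higher and 0 lower at that p, and 3 were separate between the groups, all with SCF higher. Of all genes, 14.1% were separate in either direction and 7.63% with SCF higher. The summed Mueller glia level was 3971 to 5257 FPKM in NMDA and 5247 to 5869 FPKM in SCF, and 0 of 5 of its genes were higher and 1 lower at that p. For the ganglion cell list, the cells that NMDA injures, the summed level was 227 to 463.5 FPKM in NMDA and 261 to 318.5 FPKM in SCF, and 0 of 7 genes were higher and 1 lower. For horizontal cells it was 52.4 to 76.3 FPKM in NMDA and 57.5 to 65.5 FPKM in SCF, with 1 of 3 genes lower at that p and 1 separate. The summed levels in NMDA and SCF were, for cones 56.8 to 96.7 FPKM and 67.5 to 73.04 FPKM, for microglia 18.9 to 168 FPKM and 121 to 165 FPKM, and for the pigment epithelium 189 to 795 FPKM and 712 to 933 FPKM. The summed level of the 7 bipolar members was 283, 256 and 293 FPKM in NMDA and 298, 305 and 327 FPKM in SCF, all 3 SCF libraries above the NMDA libraries, and it is mainly the sum of Prkca and Cabp5. These summed levels of the lists are printed without rescaling and have no background share beside them. For Cabp5 the groups overlapped after upper quartile and median-of-ratios scaling. Divided by the factors of either scaling, the members' sums and the amacrine sums overlapped between the groups as well. The upper quartile factors were 0.913, 1.04 and 0.922 in NMDA replicates 1 to 3 and 1.06, 1.03 and 1.04 in SCF replicates 1 to 3.

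**Figure D5:**
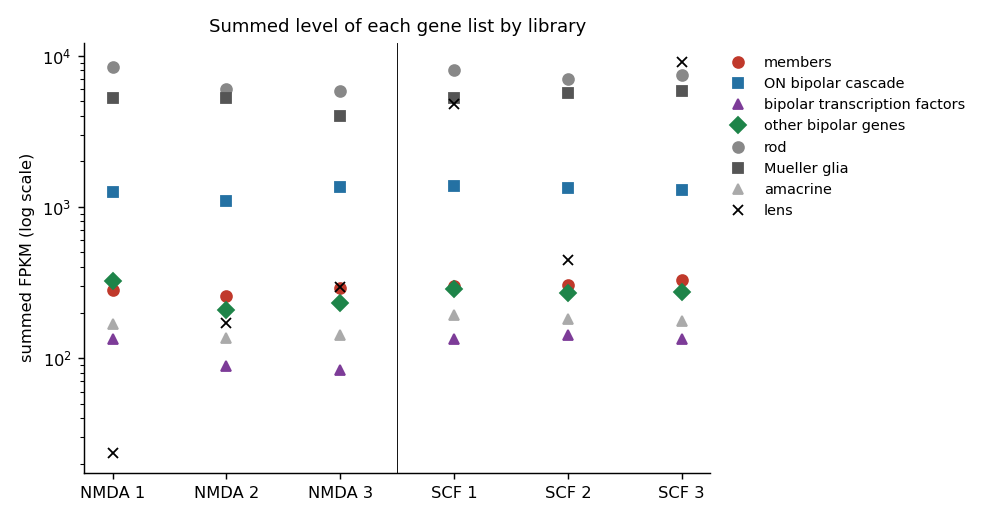
Summed FPKM (log scale) of the members, the 3 other bipolar lists and 4 lists of other cell types in each library, with NMDA left and SCF right of the line. The members' sum lies between 256 and 327 FPKM, while lens genes run from 23.4 FPKM in NMDA replicate 1 to 9042 FPKM in SCF replicate 3.

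The genes whose pattern over the 6 libraries was most like the mean log2 level of the 7 members, among 7023 genes with a mean of at least 5 FPKM, were Fam207a (Pearson r 0.98), Gatd1 (0.96), Rap1gds1 (0.94), Nom1 (0.94) and Gfm1 (0.93). Each had its highest value in SCF replicate 3, as the members' mean did. That mean gave Cabp2, Vsx1 and Pcp2 the same weight as Prkca and Cabp5. In SCF replicate 3, Cabp2, Vsx1 and Pcp2 rested on 15, 17 and 2 fragments. The 6 points share their libraries and transcript lists with the members, so these values are descriptions.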

How the data were processed

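The authors deposited FPKM values per transcript for each library and a table of totals (clean read counts, percent of reads kept and percent of bases of quality 30 or more). They enriched mRNA with oligo(dT) beads and sequenced it on an Illumina HiSeq 4000. The aligner and counter are not given in the sources used here, and the submitters' processing notes name mm9, but 98.2% of the positions of 63345 Ensembl transcripts equalled GENCODE M21 (GRCm38), which was used for coordinates and sequences. FPKM times transcript length was whole, within 0.05 of a fragment or the file's rounding, for 98.4 to 98.5% of values above 0, which gave fragments per library. Floors of 3 fragments cover counting error only. Unnamed assembled transcripts were left out.

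Gene values were the sums of FPKM over those of the 46933 shared Ensembl transcripts that belong to a gene, and log2(FPKM + 1) was fitted with limma 3.58.1 in R 4.3.3 (variance trend, condition only, all 6 libraries), with Benjamini-Hochberg adjustment over 25202 genes. The thresholds were those of the study's methods, plus an adjusted and an unadjusted p of 0.05. The fit was tested on simulated data. Single values had exact permutation tests, and tables were made with Python 3.11.15. The members and lists were chosen with earlier results of these data known. All members are named, with the highest and lowest fold change of each other bipolar list, any gene at an unadjusted p of 0.05, and the 5 genes most like the members' mean. Rgs9bp, Gnb5, Bhlhe22, Scgn and Tpbg were added after their values were seen. Replicate numbers do not pair the libraries.

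Alternatives were a pseudocount of 0.1, a mean FPKM of at least 1, upper quartile and median-of-ratios scaling, all listed transcripts, the highest transcript, voom on fragments, a replicate block, each library left out, and the libraries of list A. Equal FPKM sums, protein-coding transcripts only and the fit of single transcripts were chosen after seeing the data.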

Additional observations from a re-analysis of the deposited data

How the results depend on the processing

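No member and no gene of the 3 other bipolar lists passed the fold change and adjusted p thresholds under any alternative run. Of 116 member log2 fold changes under the alternatives, 114 kept the sign of the reported value, and none of those with a test had an adjusted p of at most 0.05. The 2 exceptions were Trpm1 with protein-coding transcripts only (0.50), a sum of other transcripts on at most 3 fragments each, and between SCF and NMDA replicate 1 (0.041). Not all of the 116 values were free to change sign. The 16 of Pcp2 were fixed by its values of 0 in NMDA. The replicate block and the mean FPKM filter leave each fitted log2 fold change unchanged by construction. Values also stayed the same where a setting summed the same transcripts. With all listed transcripts these were Cabp5, Prkca and Vsx1, and Cabp2 gained only a list B transcript at 0. With the highest transcript only they were Cabp2, Lhx4 and Vsx1. With protein-coding transcripts only they were Cabp5, Cabp2, Lhx4 and Vsx1. The median over the members ranged from 0.10 to 0.32, including 0.12 after upper quartile scaling, where the median of all genes was -0.05. With a mean FPKM of at least 1, 3 of 4 members were higher in SCF. The number of members whose groups did not overlap (1) was 0 after upper quartile or median-of-ratios scaling, 3 with all listed transcripts (Cabp5, Lhx4 and Pcp2), 2 with the highest transcript only (Cabp5 and Trpm1), and 1 to 3 when a library was left out, where fewer libraries have fewer chances to overlap. Without NMDA replicate 1 it was 3 (Cabp5, Trpm1 and Vsx1), without NMDA replicate 2 it was 3 (Cabp2, Cabp5 and Lhx4), without NMDA replicate 3 it was 2 (Cabp5 and Prkca), and without SCF replicate 1 it was 2 (Cabp5 and Pcp2). The sums over all listed transcripts compare different transcript sets between libraries. Lhx4 gained a list B transcript in NMDA replicates 2 and 3 alone (0.813 and 2.91 FPKM). Pcp2 gained a list A transcript with 0.621 FPKM in SCF replicate 1 and no value in NMDA replicates 2 and 3. At an unadjusted p of 0.05, 1 member passed with all listed transcripts, and 0 to 1 with a library left out. This was Pcp2 each time, on 1 or 2 fragments. The shares of all genes given above (14.1% not overlapping and 9.22% at this p) belong to the main fit. For the alternatives behind these counts no share of all genes was computed, so the counts have no background beside them. Depth limits Pcp2, Cabp2, Vsx1 and Lhx4, which had fewer than 10 fragments in at least 1 library.

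Since each block held both groups equally, the replicate block had to leave every member's log2 fold change as it was, with a median of 0.24. It changed no call. Same-numbered libraries did not deviate together (correlations of -0.08, -0.08 and -0.09), so they share only a number.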
